A study of Mus musculus with 13 samples.

Results

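A set of genes that encode brakes on T cell receptor (TCR) signaling, Cd5, Cd6, Ubash3a, Ubash3b, Ptpn6, Ptpn22, Cbl, Cblb, Dgka and Dgkz, were followed in mature CD4 single-positive (CD4SP) thymocytes selected with or without the protease cathepsin L (CTSL) in the thymic epithelium. The genes were taken by name as known attenuators of the pathway, with earlier results of these data known. The 10 genes stand among 35854 annotated genes in the data. The cells were M2 CD4SP thymocytes, the CD69- MHCI+ stage, sorted from mice that carry the transgenic Lm54 TCR on a Rag1-/- background, so that all cells of both genotypes had the same receptor. In CtslΔTEC mice a conditional Ctsl allele is deleted by Foxn1-cre in thymic epithelial cells (TECs), and the thymocytes themselves are not targeted. The control mice are written Ctsl+/+ here, as in the study, and the sample labels give them as Ctsl fl/fl. Unstimulated cells came from 5 CtslΔTEC and 4 Ctsl+/+ mice. Cells of a further 2 CtslΔTEC and 2 Ctsl+/+ mice were cultured for 4 h with plate-bound LLO:I-Ab, the peptide–MHC ligand of this TCR, at 1 µg per ml and soluble anti-CD28 at 250 ng per ml. Each library came from 1 mouse, and the ages of these mice are not given in the labels.

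TCR engagement activates the kinase LCK and then ZAP-70, and a scaffold of adaptors passes the signal on to calcium, Ras and NF-κB. The attenuators act at successive steps of this chain. CD5 and CD6 are surface receptors of the scavenger receptor cysteine-rich family that are phosphorylated after TCR engagement and recruit regulators, and the level of CD5 on a thymocyte is widely used as a record of the strength of its positive selection signal. UBASH3A and UBASH3B (also STS-2 and STS-1) are phosphatase-related proteins that bind ubiquitin, PTPN6 (SHP-1) and PTPN22 are tyrosine phosphatases, CBL and CBLB are ubiquitin ligases, and DGKA and DGKZ are diacylglycerol kinases that remove the lipid needed to activate RasGRP1 and protein kinase C.

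Libraries held 25692380 to 39127833 estimated counts in unstimulated cells and 8085463 to 27184520 in stimulated cells, the lowest total being that of stimulated Ctsl+/+ mouse 5. Transcripts of Ctsl were present at 11.4 to 17.9 CPM (counts over the effective library size, by TMM) in unstimulated CtslΔTEC cells and 6.31 to 8.85 CPM in Ctsl+/+ cells, which checks nothing about the deletion because it was made in TECs. All 8 markers of mature CD4SP cells exceeded 1 TPM (a level scaled to transcript length and depth) in every mouse, and B cell markers summed to less than 1 TPM in every mouse. Markers of CD4+CD8+ double-positive (DP) thymocytes moved with genotype. The 7 DP markers summed to 199 to 264 TPM in unstimulated CtslΔTEC cells against 44.7 to 66.4 TPM in Ctsl+/+ cells, and to 56.4 to 59.6 against 19.6 to 23.0 TPM after stimulation. Of the 6 DP markers tested in unstimulated cells 5 were higher in CtslΔTEC cells, and 5 of the 8 mature markers were lower, where 6.42% of all genes tested were higher and 8.36% were lower. The 4 markers of regulatory T cells summed to 9.68 to 14.4 TPM in unstimulated CtslΔTEC and 3.34 to 7.24 TPM in Ctsl+/+ cells, where Il2ra (2.0) and Ctla4 (1.66) were higher on the log2 scale in CtslΔTEC cells, Ikzf2 (-0.72) was lower and Foxp3 (0.18) did not pass. The summed levels of myeloid markers (2.75 to 9.84 and 3.66 to 6.37 TPM), TEC markers (2.08 to 3.83 and 1.48 to 2.10 TPM), and erythroid markers (98.3 to 471.1 and 106.3 to 192.4 TPM) overlapped between unstimulated genotypes. Those of semimature CD4SP cells did not (120.6 to 155.6 and 92.3 to 119.5 TPM), but of these 4 markers 1 was higher, 1 was lower and 2 did not pass. Transcripts of 4 Y-linked genes were summed in CPM over the library total, without TMM factors. They summed to 354 to 489 CPM in all 5 unstimulated CtslΔTEC mice and to 394.5 CPM in Ctsl+/+ mouse 3, but to 6.18 to 8.29 CPM in the other 3 Ctsl+/+ mice. At rest these transcripts and genotype could thus be told apart only through Ctsl+/+ mouse 3. In stimulated cells the Y-linked transcripts summed to 5.45 and 473.5 CPM in CtslΔTEC and to 4.11 and 369.1 CPM in Ctsl+/+ mice. The files of stimulated cells carry another date than those of unstimulated cells, so that date and stimulation cannot be told apart, and a gene said to rise or fall upon stimulation differed between these libraries. In bulk RNA, a change in the make-up of the sorted cells and a change in RNA per cell cannot be told apart either, and the part of the DP and regulatory T cell markers in the differences between genotypes was not tested.

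Before stimulation, the genotypes differed in 4 of the 10 attenuators. Cd5 and Cd6 were lower in CtslΔTEC cells, whereas Ptpn22 and Cbl were modestly higher, and the other 6 genes did not pass the threshold (edgeR quasi-likelihood test, Benjamini-Hochberg adjusted p under 0.1). Of all 13149 genes tested, 6.42% were higher and 8.36% were lower at this threshold. The median log2 fold change of the 10 attenuators was -0.04, beside 0.01 for all genes. The same 4 attenuators had no overlap between the CPM of the 5 CtslΔTEC and the 4 Ctsl+/+ mice, which was the case for 13.9% of all genes tested.

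**Figure D1:**
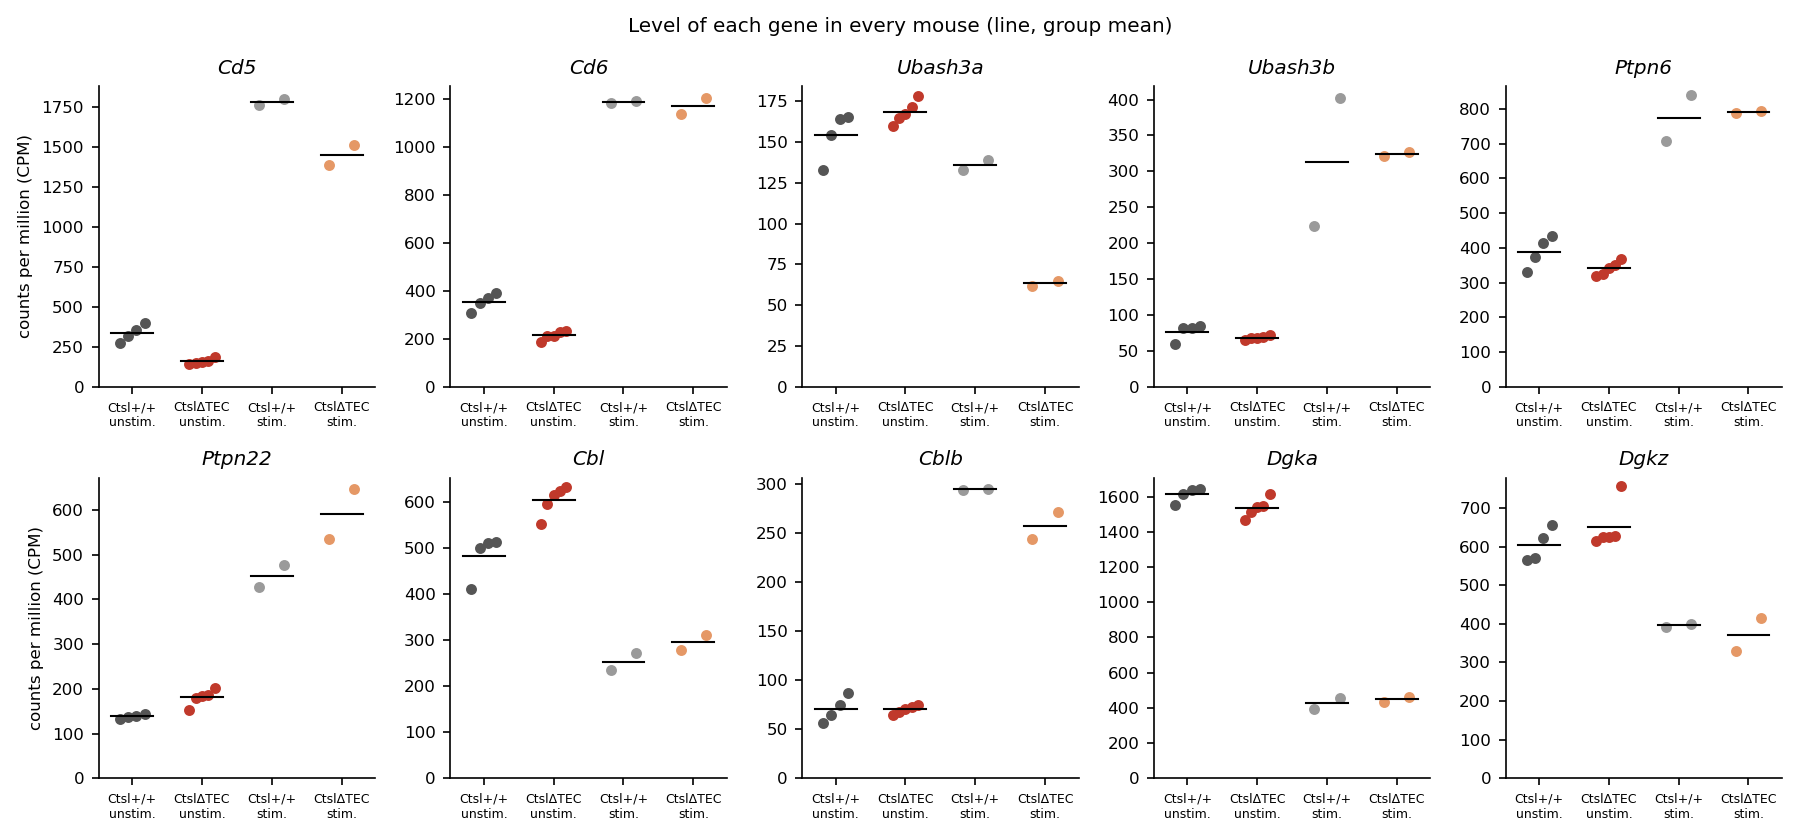
Level of the 10 attenuators in each of 13 mice, in CPM on linear axes that start at 0, by genotype and stimulation. Points are mice and lines are group means. Cd5 and Cd6 of unstimulated CtslΔTEC mice lie below every Ctsl+/+ mouse, and Ubash3a of the 2 stimulated CtslΔTEC mice lies at 62.0 and 64.9 CPM against 133 and 139 CPM.

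Cd5 was the attenuator with the largest genotype difference before stimulation. Its level was 155.5, 184.4, 151.9, 143.8 and 162.1 CPM in unstimulated CtslΔTEC mice 1 to 5, with a mean of 159.6 ± 15.4 (SD, n = 5). In Ctsl+/+ mice 1 to 4 it was 272.7, 400.8, 354.2 and 319.1 CPM, with a mean of 336.7 ± 54.2 (SD, n = 4). The highest CtslΔTEC mouse thus stayed well below the lowest Ctsl+/+ mouse. The log2 fold change was -1.075 (SE 0.108, 95% interval -1.311 to -0.839, edgeR adjusted p = 7.51e-05), or 0.475 times the control level. An exact two-sided permutation test of log2 CPM gave p = 0.00794, the smallest value that 5 against 4 mice allow. With the level of Y-linked transcripts as a covariate the log2 fold change was -1.15 (edgeR adjusted p = 0.00822), and within the second date alone, with 3 mice of each genotype, it was -1.07 (edgeR adjusted p = 0.00132).

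Cd5 was higher in stimulated than in unstimulated cells of both genotypes, with the larger difference in CtslΔTEC cells. Stimulated CtslΔTEC mice 6 and 7 had 1510 and 1390 CPM, and stimulated Ctsl+/+ mice 5 and 6 had 1799 and 1762 CPM. These were the highest Cd5 levels of the data, so that the groups ranked from unstimulated CtslΔTEC over unstimulated Ctsl+/+ to stimulated CtslΔTEC and stimulated Ctsl+/+ cells. The rise was 9.09-fold in CtslΔTEC cells (log2 3.18, SE 0.12) and 5.29-fold in Ctsl+/+ cells (log2 2.40, SE 0.13). The genotype difference after stimulation was -0.30 on the log2 scale with an interval of -0.62 to 0.03, and it did not pass the threshold (edgeR adjusted p = 0.269). The change of the genotype difference itself, tested as the interaction of genotype and stimulation, was 0.78 (SE 0.18, edgeR adjusted p = 0.0339). This call was lost without single libraries, as the interaction was 0.72 (edgeR adjusted p = 0.154) without stimulated CtslΔTEC mouse 6 and 0.79 (edgeR adjusted p = 0.118) without stimulated Ctsl+/+ mouse 5.

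Cd6 followed Cd5 closely. It encodes a receptor related to CD5 that binds CD166, the product of Alcam, and docks the adaptor SLP-76. In unstimulated CtslΔTEC mice 1 to 5 its level was 231.3, 213.0, 228.4, 188.2 and 211.7 CPM (mean 214.5 ± 17.2, SD, n = 5). The 4 Ctsl+/+ mice had 308.6, 391.4, 372.6 and 351.0 CPM (mean 355.9 ± 35.6, SD, n = 4), again without overlap. The log2 fold change was -0.73 (SE 0.08, 95% interval -0.91 to -0.54, edgeR adjusted p = 0.000196), and the exact permutation p was 0.00794. With the Y-linked covariate the value was -0.785 (edgeR adjusted p = 0.018).

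After stimulation Cd6 stood at 1204 and 1139 CPM in CtslΔTEC cells and at 1186 and 1191 CPM in Ctsl+/+ cells. The genotypes overlapped here, with a log2 fold change of -0.02 and an interval of -0.28 to 0.24. Cd6 rose 5.46-fold in CtslΔTEC and 3.34-fold in Ctsl+/+ cells, and the interaction was 0.71 (SE 0.15, edgeR adjusted p = 0.0183). Of the 10 attenuators 3 passed the interaction test, Cd5 and Cd6 with positive values and Ubash3a with a negative value. Of 14236 genes tested, 1.13% had a positive and 4.9% a negative interaction at the same threshold.

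**Figure D2:**
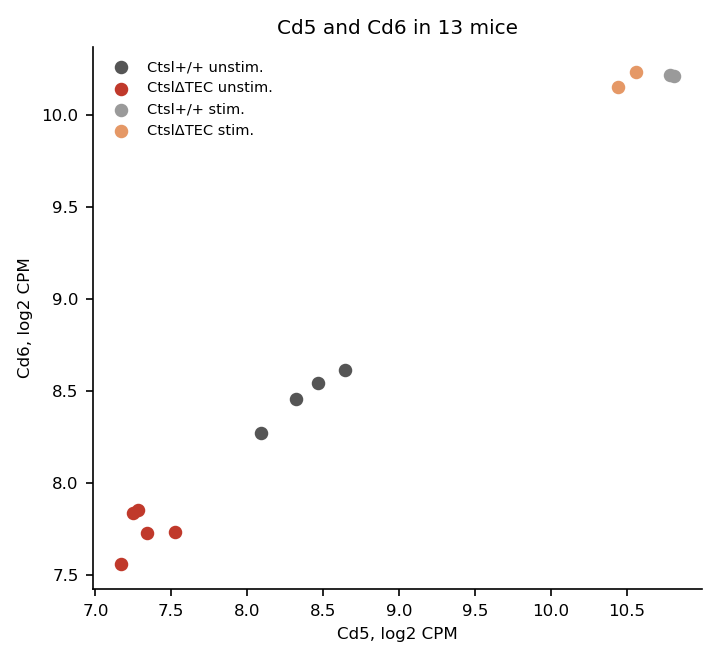
Level of Cd5 (x axis) and Cd6 (y axis) in each of 13 mice, in log2 CPM with a prior count of 2, coloured by group. Across the 13 libraries Pearson's r was 0.995; the stimulated mice lie apart at the upper right, and among unstimulated mice all CtslΔTEC mice lie below and to the left of the Ctsl+/+ mice.

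Among 14235 other genes, Cd6 was the gene whose log2 CPM over 13 libraries was most like that of Cd5 (Pearson r = 0.995), followed by Ndrg1 (0.993) and Ccr4 (0.991), a chemokine receptor gene. For Cd6 the order was Cd5, Rcn1 (0.993) and Plaur (0.992), which encodes the urokinase receptor. The libraries share 4 groups and a large response to stimulation, so these values describe a common pattern over groups more than variation between mice of 1 group. Cd5 and Cd6 are neighbours on chromosome 19 (GRCm38, GENCODE M21), both on the minus strand, with Cd5 at chr19:10717116-10739002 and Cd6 at chr19:10789341-10830058. The genes are 50.3 kb apart, with no protein-coding gene between them in RefSeq.

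Ubash3a showed the opposite pattern, with little difference between genotypes at rest and a marked one after stimulation. At rest it was at 159.9 to 178.5 CPM (median 167.2) in the 5 CtslΔTEC mice and at 154.6, 165.6, 163.9 and 132.8 CPM in Ctsl+/+ mice 1 to 4, so that the genotypes overlapped (log2 fold change 0.13, 95% interval -0.03 to 0.29, edgeR adjusted p = 0.317). After stimulation it was at 62.0 and 64.9 CPM in CtslΔTEC mice 6 and 7 and at 138.9 and 132.6 CPM in Ctsl+/+ mice 5 and 6. Ubash3a was thus 0.468 times as high in stimulated CtslΔTEC as in stimulated Ctsl+/+ cells (log2 fold change -1.095, SE 0.110, 95% interval -1.330 to -0.861, edgeR adjusted p = 7.57e-05). By p-value it ranked 13 of 14236 genes in this comparison. Of the 10 attenuators 2 passed the threshold after stimulation, Ubash3a as lower and Ptpn22 as higher in CtslΔTEC cells, where 10.6% of all genes were lower and 2.78% were higher. The median of the 10 was 0.01 on the log2 scale, beside -0.06 for all genes.

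Ubash3a was lower in stimulated than in unstimulated CtslΔTEC cells, with a log2 change of -1.41 (SE 0.10, edgeR adjusted p = 6.28e-09). In Ctsl+/+ cells the value was -0.18 with an interval of -0.38 to 0.02 (edgeR adjusted p = 0.1), just outside the threshold. The interaction was -1.22 (SE 0.13, 95% interval -1.50 to -0.94, edgeR adjusted p = 0.000637) and ranked 3 of all 14236 genes. The small value in Ctsl+/+ cells depended on the scaling of libraries and on how transcripts were weighed. It was -0.36 (edgeR adjusted p = 0.0126) when effective transcript length was taken into account, -0.28 (edgeR adjusted p = 0.0179) with library totals in place of TMM factors, and 0.06 (edgeR adjusted p = 0.581) over protein-coding transcripts alone. The genotype difference after stimulation was -1.08 with the length offset and -1.22 over protein-coding transcripts, and it passed the threshold under both.

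The windows around the annotated starts of Cd5 and Ubash3a are printed because these genes had interactions of opposite sign. Both sequences are from RefSeq (GRCm38.p6) and run from 250 bases before to 50 bases after the start, 5′ to 3′ on the gene's strand, at chr19:10738925-10739224 (minus strand) for Cd5 and chr17:31207816-31208115 (plus strand) for Ubash3a. The transcript Ubash3a-208, with the largest share of Ubash3a counts, has its first exon at chr17:31207873-31208231 in GENCODE M21 (GRCm38). Most of the Ubash3a window lies within this exon. Capitals mark matches on either strand to the letters CANNTG (E box) and GGAAG (ETS).
Cd5: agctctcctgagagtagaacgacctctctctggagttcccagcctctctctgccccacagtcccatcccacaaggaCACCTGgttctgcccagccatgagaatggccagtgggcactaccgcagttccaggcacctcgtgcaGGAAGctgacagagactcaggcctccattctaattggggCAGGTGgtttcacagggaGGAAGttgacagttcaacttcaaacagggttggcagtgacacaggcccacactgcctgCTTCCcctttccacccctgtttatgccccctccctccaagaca
Ubash3a: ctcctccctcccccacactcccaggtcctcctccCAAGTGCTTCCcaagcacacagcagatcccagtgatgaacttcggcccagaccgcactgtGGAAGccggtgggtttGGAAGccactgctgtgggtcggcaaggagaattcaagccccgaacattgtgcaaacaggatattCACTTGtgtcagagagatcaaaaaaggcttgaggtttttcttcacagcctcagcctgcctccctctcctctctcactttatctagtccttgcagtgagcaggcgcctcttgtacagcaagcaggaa

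Each window held 2 E boxes and 3 ETS matches, and in Ubash3a 1 E box adjoins an ETS match without overlap, so that they form 1 run of capitals. These letters are common, as 72.3% of 32851 windows of the same length held an E box match and 71.4% an ETS match. Neither window held the letters searched for RUNX (TGTGGT), AP-1 (TGANTCA), NFAT (GGAAAA) or EGR (GCGTGGG), which were present in 16.8%, 7.81%, 23.4% and 5.04% of windows. Windows were given for 9 of the 10 attenuators, all but Cd6, with more than 1 start for Dgka, Dgkz, Ptpn22 and Ubash3b. Matches are letters only and do not show that a factor is bound.

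Ubash3b, the paralog of Ubash3a whose product STS-1 dephosphorylates ZAP-70, did not follow Ubash3a. It was at 65.2, 69.4, 68.1, 67.8 and 72.4 CPM in unstimulated CtslΔTEC mice 1 to 5 and at 81.9, 82.0, 84.2 and 59.4 CPM in Ctsl+/+ mice 1 to 4. Ctsl+/+ mouse 4 lay below and the other 3 Ctsl+/+ mice above all CtslΔTEC mice. With all mice the log2 fold change was -0.16 (95% interval -0.37 to 0.04, edgeR adjusted p = 0.332), and without Ctsl+/+ mouse 4 it was -0.27 (edgeR adjusted p = 0.0135). Ubash3b rose upon stimulation, 4.72-fold in CtslΔTEC and 4.08-fold in Ctsl+/+ cells. The 2 stimulated Ctsl+/+ mice were far apart, at 223.8 CPM in mouse 5 and 401.8 CPM in mouse 6, and the CtslΔTEC mice lay between them at 326.9 and 321.1 CPM. The genotype difference after stimulation was 0.05 with an interval of -0.39 to 0.48, but 0.53 (edgeR adjusted p = 0.0712) without mouse 6 and -0.32 without mouse 5.

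Of the phosphatase genes Ptpn22 passed the threshold at rest and Ptpn6 did not. Ptpn22 encodes a phosphatase that works with the kinase CSK to switch off LCK. In unstimulated CtslΔTEC mice 1 to 5 it was at 152.0, 202.8, 183.6, 186.3 and 179.0 CPM (mean 180.7 ± 18.4, SD, n = 5), and in Ctsl+/+ mice 1 to 4 at 137.3, 143.2, 139.3 and 133.6 CPM (mean 138.3 ± 4.02, SD, n = 4). The Ctsl+/+ mice were close together and below every CtslΔTEC mouse. The log2 fold change was 0.39 (SE 0.08, edgeR adjusted p = 0.00753), and the exact permutation p was 0.0159. The difference had the same size after stimulation, at 0.38 (SE 0.13, edgeR adjusted p = 0.074), with 646.7 and 534.4 CPM in CtslΔTEC and 427.8 and 476.8 CPM in Ctsl+/+ cells, and the interaction was -0.002 (95% interval -0.324 to 0.321). Both calls were lost under some alternatives, at rest with the Y-linked covariate (0.37, edgeR adjusted p = 0.299) and after stimulation without CtslΔTEC mouse 6 (0.24, edgeR adjusted p = 0.457) or Ctsl+/+ mouse 5 (0.30, edgeR adjusted p = 0.38).

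Ptpn6, which encodes SHP-1, was at 319.2 to 366.7 CPM (median 342.2) in the 5 unstimulated CtslΔTEC mice and at 330.9, 373.1, 414.6 and 434.4 CPM in Ctsl+/+ mice 1 to 4. The groups overlapped through Ctsl+/+ mouse 1. The log2 fold change was -0.19 (95% interval -0.37 to -0.005, edgeR adjusted p = 0.196), and it was -0.26 (edgeR adjusted p = 0.0683) without that mouse. Stimulated cells had 788.0 and 795.1 CPM in CtslΔTEC and 707.2 and 839.7 CPM in Ctsl+/+ mice. Both phosphatase genes rose upon stimulation, Ptpn22 by 3.27-fold in each genotype and Ptpn6 by 2.32-fold in CtslΔTEC and 1.99-fold in Ctsl+/+ cells.

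The ubiquitin ligase genes Cbl and Cblb behaved differently from each other. Cbl was higher at rest in CtslΔTEC mice 1 to 5, at 553.7, 616.2, 623.6, 633.9 and 597.3 CPM (mean 604.9 ± 31.6, SD, n = 5), than in Ctsl+/+ mice 1 to 4, at 511.2, 500.4, 513.1 and 412.5 CPM (mean 484.3 ± 48.2, SD, n = 4). The groups did not overlap, and Ctsl+/+ mouse 4 was the lowest. The log2 fold change was 0.32 (SE 0.08, edgeR adjusted p = 0.0191), but 0.23 (edgeR adjusted p = 0.572) with the Y-linked covariate and 0.29 (edgeR adjusted p = 0.168) with the length offset. Cblb, whose product raises the threshold for activation without costimulation, was at 64.8 to 75.0 CPM in CtslΔTEC and 56.7 to 86.6 CPM in Ctsl+/+ cells at rest, with a log2 fold change of -0.01 and an interval of -0.24 to 0.23. Upon stimulation the pair changed in opposite directions. Cblb rose 3.67-fold in CtslΔTEC and 4.16-fold in Ctsl+/+ cells, to 271.4 and 243.5 CPM and to 294.2 and 294.6 CPM. Cbl fell to 0.488 times in CtslΔTEC and 0.525 times in Ctsl+/+ cells, to 311.8 and 278.8 CPM and to 234.9 and 272.8 CPM. Neither gene differed between stimulated genotypes at the threshold (Cbl 0.22, 95% interval -0.05 to 0.48; Cblb -0.19, interval -0.52 to 0.13).

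Per length, Dgka was the most abundant of the 10 transcripts at rest, at 803.7 ± 36.6 TPM (SD, n = 5) in CtslΔTEC and 815.1 ± 44.8 TPM (SD, n = 4) in Ctsl+/+ cells. In CPM, the CtslΔTEC mice ranged from 1469 to 1612 (median 1542) and Ctsl+/+ mice 1 to 4 had 1646, 1550, 1638 and 1616, with overlap. The log2 fold change was -0.07 (95% interval -0.19 to 0.06, edgeR adjusted p = 0.525). An exact permutation test of log2 CPM gave p = 0.0476, but 0.69 when TPM was used, so the difference was not held by both scales. Dgkz was at 615.6 to 757.8 CPM (median 626.1) in CtslΔTEC and at 570.9, 564.3, 655.9 and 622.1 CPM in Ctsl+/+ mice, with a log2 fold change of 0.11 and an interval of -0.07 to 0.29. Dgkz was highest in CtslΔTEC mouse 1, without which the value was 0.05, and it was 0.006 with the Y-linked covariate. Both kinase genes fell upon stimulation. Dgka dropped to 0.292 times in CtslΔTEC and 0.264 times in Ctsl+/+ cells, with 432.0 and 464.4 CPM and 393.2 and 458.0 CPM left. Dgkz dropped to 0.573 and 0.656 times, to 330.0 and 414.2 CPM and to 399.3 and 392.5 CPM. After stimulation the genotype differences were 0.07 (95% interval -0.14 to 0.29) for Dgka and -0.09 (95% interval -0.37 to 0.19) for Dgkz.

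**Figure D3:**
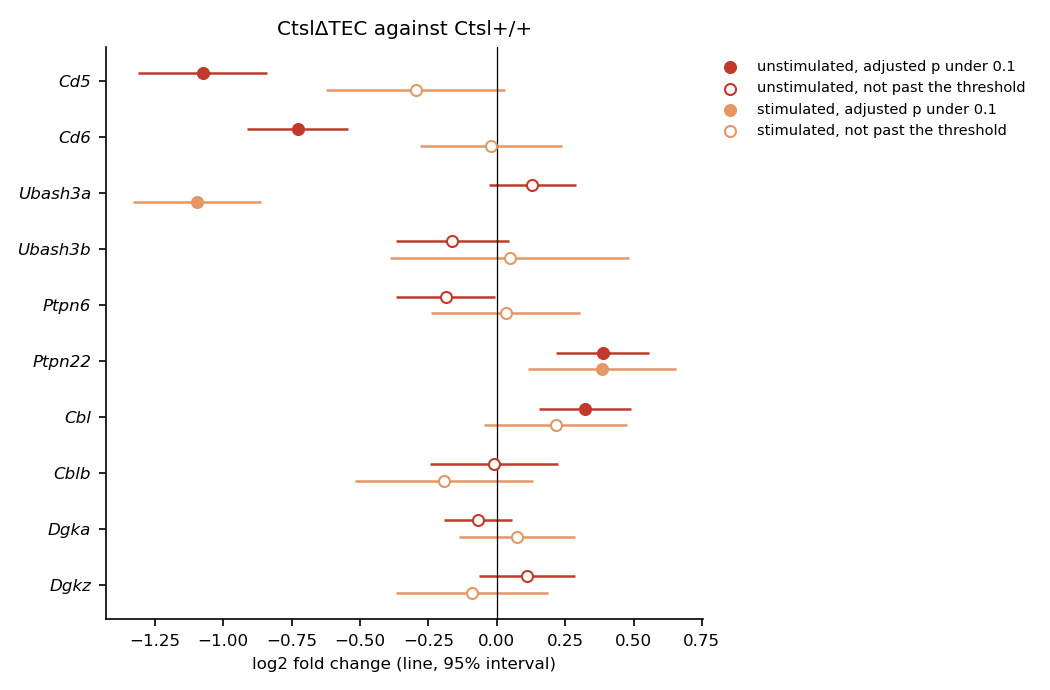
Log2 fold change of CtslΔTEC against Ctsl+/+ cells for each attenuator, at rest (5 and 4 mice) and after stimulation (2 and 2 mice), with 95% intervals from edgeR; filled points passed an adjusted p of 0.1. Cd5 and Cd6 sit at -1.075 and -0.73 at rest and nearer to 0 after stimulation, and Ubash3a at 0.13 at rest and -1.095 after stimulation.

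Between unstimulated and stimulated cells nearly all of the 10 genes differed. In Ctsl+/+ cells 6 rose, 3 fell and Ubash3a did not pass, and in CtslΔTEC cells 6 rose and 4 fell. This has to be read against a response in which 32.9% of all genes rose and 34.8% fell in Ctsl+/+ cells, and 33% rose and 38.2% fell in CtslΔTEC cells. Cd5, Cd6, Ubash3b, Ptpn6, Ptpn22 and Cblb were the genes that rose and Cbl, Dgka and Dgkz those that fell in both. The responses of the 2 genotypes use separate mice, and the test of their difference is the interaction, passed by Cd5, Cd6 and Ubash3a. The other 7 had interactions between -0.20 (Dgkz) and 0.22 (Ptpn6). With 2 mice per stimulated group small interactions could be missed. In data simulated with the depth and spread of these libraries the interaction test recovered 37.1% of log2 changes of 1 and 2.08% of changes of 0.5. The changed genes, 97 and 96 of 14236, were drawn at random from genes of all levels, and no response to stimulation was simulated. In the data 859 genes passed this test, so the rates do not give the chance of missing an interaction in the 10 attenuators.

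**Figure D4:**
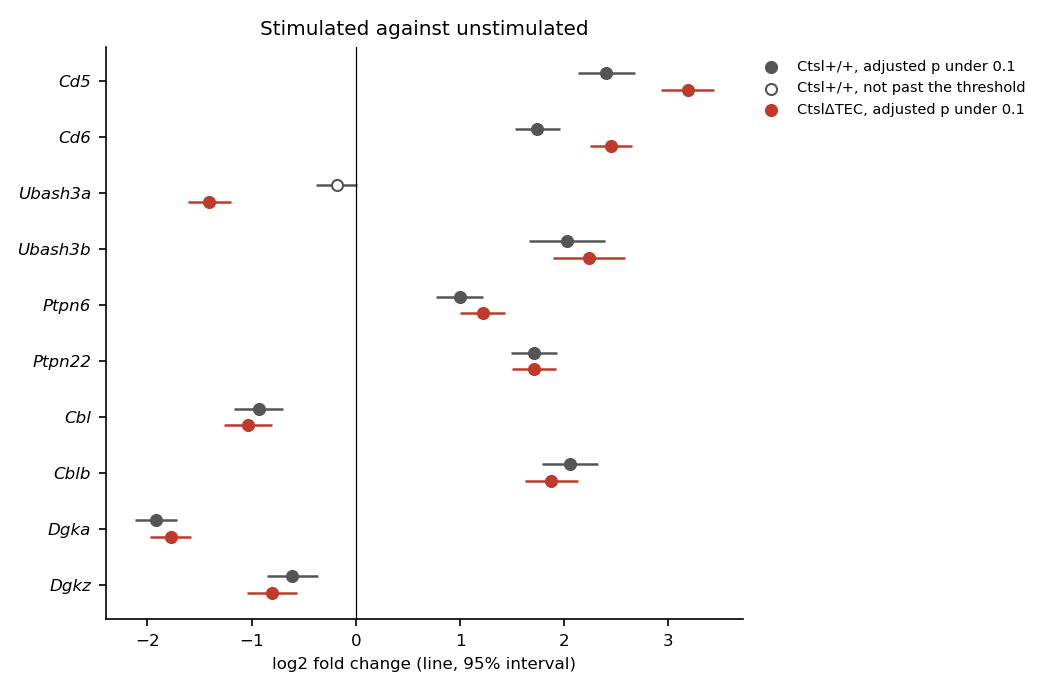
Log2 fold change of stimulated against unstimulated cells for each attenuator within Ctsl+/+ (2 and 4 mice) and CtslΔTEC cells (2 and 5 mice), with 95% intervals from edgeR; filled points passed an adjusted p of 0.1. Intervals of the genotypes are apart for Cd5 (2.40 and 3.18), Cd6 (1.74 and 2.45) and Ubash3a (-0.18 and -1.41).

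Transcript usage was examined for each attenuator, as the share of the gene's estimated counts that fell on its leading transcript and on transcripts not annotated as protein-coding. These 20 shares were compared at rest by exact two-sided permutation tests, with p-values that are not adjusted. Dgka and Ptpn22 have only 1 protein-coding transcript each, so that both of their shares mirror each other and give the same test. Of the leading transcripts 3 of 10 had p under 0.05 (exact permutation), where 7.85% of 10222 genes with at least 2 transcripts did, and of the non-coding shares 0 of 10, where 8.32% of 8953 genes did. The groups did not overlap for 1 of the 10 leading transcripts, that of Dgkz, and for 3.37% of all genes, and for 0 of the 10 non-coding shares and 3.26% of all genes. For Dgkz, the leading transcript Dgkz-201 took 71.3, 70.3, 71.2, 71.1 and 70.3% of Dgkz counts in CtslΔTEC mice 1 to 5 and 72.3, 76.2, 75.4 and 77.3% in Ctsl+/+ mice 1 to 4. All CtslΔTEC mice lay below the Ctsl+/+ mice, and the difference was -4.43 percentage points (exact permutation p = 0.00794). The second transcript, Dgkz-203, has another first exon and a longer coding sequence, of 3369 against 2787 bases, and took 14.4 ± 0.56% (SD, n = 5) in CtslΔTEC and 10.6 ± 1.05% (SD, n = 4) in Ctsl+/+ cells. After stimulation Dgkz-201 was at 64.5 and 66.5% in CtslΔTEC cells but at 77.2 and 66.8% in Ctsl+/+ mice 5 and 6, which differed more from each other than the genotypes did at rest.

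For Cd6, the leading transcript Cd6-203 took 70.9, 73.7, 74.7, 72.0 and 74.4% in unstimulated CtslΔTEC mice 1 to 5 and 75.7, 78.2, 74.5 and 78.4% in Ctsl+/+ mice 1 to 4, a difference of -3.57 points (exact permutation p = 0.0159) with an overlap of 1 mouse of each genotype. After stimulation it was at 62.48 and 62.50% in CtslΔTEC and at 75.4 and 69.0% in Ctsl+/+ cells. The transcript Cd6-202 took 18.4 and 20.2% of stimulated CtslΔTEC and 11.6 and 16.2% of stimulated Ctsl+/+ counts. It lacks the coding exon 9 of 13 of Cd6-203, of 117 bases at chr19:10792828-10792944 (GRCm38, minus strand), which leaves the reading frame unchanged. The retained-intron transcript Cd6-201 took 9.68 and 10.9% of stimulated CtslΔTEC and 5.51 and 8.93% of stimulated Ctsl+/+ counts. Stimulated groups of 2 mice each cannot reach an exact p below 0.333, so these are given as values. For Cd5, Cd5-201 took 88.7 ± 0.90% (SD, n = 5) in CtslΔTEC and 90.1 ± 0.80% (SD, n = 4) in Ctsl+/+ cells (exact permutation p = 0.0317), with overlap. The Cd5 and Cd6 differences lost p under 0.05 when single mice were left out, whereas that of Dgkz did not. The share of all counts on retained-intron transcripts was 5.59 to 6.59% in unstimulated CtslΔTEC and 5.13 to 5.77% in Ctsl+/+ libraries, and 7.94 and 8.55% against 5.99 and 7.63% after stimulation, and its part in these shares was not tested.

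For Cd6 and Dgka the exon of the leading transcript that is absent from the second transcript is printed in full. In both genes these transcripts also differ at their first and last exons, which are not printed. The sequences are from the GENCODE M21 transcripts, 5′ to 3′, with no part marked. Exon 10 of 24 of Dgka-201, of 89 bases at chr10:128731324-128731412 (GRCm38, minus strand), is absent from Dgka-203, and its length is not a multiple of 3.
Cd6 exon 9: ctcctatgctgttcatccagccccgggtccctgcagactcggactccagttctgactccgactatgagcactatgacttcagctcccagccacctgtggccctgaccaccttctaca
Dgka exon 10: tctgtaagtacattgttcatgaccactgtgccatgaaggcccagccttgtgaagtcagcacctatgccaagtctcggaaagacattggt

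Dgka-203, which is annotated as subject to nonsense-mediated decay, took a large part of Dgka counts, 40.3 ± 3.50% (SD, n = 5) in unstimulated CtslΔTEC and 37.8 ± 2.26% (SD, n = 4) in Ctsl+/+ cells. The leading Dgka-201 took 59.1 ± 3.56 and 61.8 ± 2.31%, without a difference past p under 0.05 (exact permutation p = 0.262). After stimulation Dgka-203 was at 34.0 and 35.5% in CtslΔTEC and 31.7 and 31.9% in Ctsl+/+ mice. Ubash3a too was spread over several transcripts. Its coding transcript Ubash3a-208 took 43.3 ± 3.53% in CtslΔTEC and 42.0 ± 2.76% in Ctsl+/+ cells at rest (exact permutation p = 0.571), and 51.1 and 51.2% against 55.8 and 57.9% after stimulation. Ubash3a-204, which has no annotated coding sequence and another first exon, took 30.7 and 34.3% of stimulated CtslΔTEC and 25.7 and 29.2% of stimulated Ctsl+/+ counts. By contrast Cbl-211 took 98.6 ± 0.29% and 98.8 ± 0.05% of Cbl counts at rest, and Ptpn6-202, Ptpn22-201 and Ubash3b-201 each had group means of 87.1 to 91.8%.

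**Figure D5:**
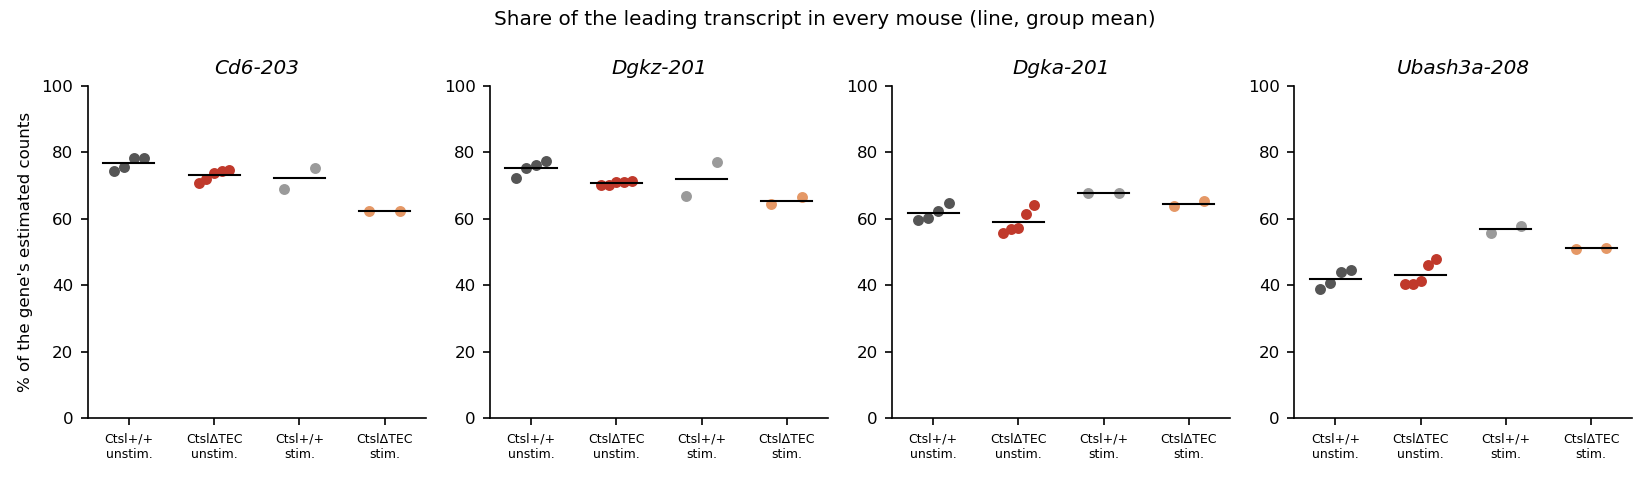
Share of the gene's estimated counts on the leading transcript of Cd6, Dgkz, Dgka and Ubash3a in each of 13 mice (y axis, percent, from 0 to 100), by genotype and stimulation. Points are mice and lines are group means. Dgkz-201 separates unstimulated CtslΔTEC (70.3 to 71.3%) from Ctsl+/+ mice (72.3 to 77.3%), and the 2 stimulated CtslΔTEC mice have the lowest Cd6-203 shares.

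The neighbourhood of the 10 genes in the pathway was described with lists of other attenuators and of TCR signaling genes. The counts over these lists stand beside shares over all genes of 6.42% higher and 8.36% lower at rest, and of 2.78% higher and 10.6% lower after stimulation. Among 8 genes for partners of CD5 and CD6, Sh2d2a was lower in CtslΔTEC cells at rest (-0.41, edgeR adjusted p = 0.00108), and Sh2d2a (-0.34) and Alcam (-1.17), the gene for the CD6 ligand, were lower after stimulation. Of 11 genes for CSK and other tyrosine phosphatases none rose and 5 fell at rest, with Ptprj (-0.55), Csk (-0.30) and Ptpn7 (-0.30) the largest, and a list median of -0.22. After stimulation Ptprc (0.41), which encodes CD45, was higher and Dusp22 (-0.61) and Csk (-0.47) were lower in that list. Csk, the partner of PTPN22, thus was lower where Ptpn22 was higher. Among 8 genes for inhibitory adaptors Lax1 (0.31) passed at rest, and after stimulation Sh2b3 (0.53) was higher and Sla2 (-0.80), Dok2 (-0.69) and Lime1 (-0.54) were lower. Of 6 other ubiquitin ligase genes tested Peli1 (0.33) was higher and Rnf125 (-0.53) and Nedd4 (-0.46) were lower at rest, and Nedd4 (-1.59) was lower after stimulation.

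Of 9 other genes for diacylglycerol kinases and lipid phosphatases none passed at rest (edgeR). After stimulation Dgkh (1.05) and Dgkd (0.53) were higher and Inpp4b (-0.66) was lower in CtslΔTEC cells, in contrast to Dgka and Dgkz, which did not pass. Among genes that restrain Ras, Rasa3 (-0.45) and Spred2 (-0.24) of 7 tested were lower at rest, and Spry2 (0.96) was higher and Rasa3 (-0.54) and Spred2 (-0.51) were lower of 8 tested after stimulation. Of 5 brakes on NF-κB and cytokine signaling Socs3 (1.88) and Cish (0.57) were higher at rest and Socs3 (1.76) after stimulation. Of 9 inhibitory receptor genes Cd160 (1.74), Ctla4 (1.66) and Lag3 (1.13) were higher and Lair1 (-1.05), Cd200 (-0.64) and Vsir (-0.22) were lower at rest. After stimulation Vsir (0.69) and Pdcd1 (0.62) were higher and Tigit (-2.71) and Cd200 (-0.57) were lower. Among genes of proximal TCR signaling, Rasgrp1 (-0.38) and Fyn (-0.23) were lower in CtslΔTEC cells at rest, and Cd247 (-0.37) was lower after stimulation. All 11 activation genes rose upon stimulation in both genotypes, as did 32.9% of all genes in Ctsl+/+ and 33% in CtslΔTEC cells. Between genotypes Il2ra (2.0) and Nr4a3 (0.38) were higher at rest, and after stimulation Nr4a2 (1.25) and Nr4a3 (0.68) were higher and Il2 (-3.55) was lower in CtslΔTEC cells.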

How the data were processed

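RNA-seq of 13 libraries was used, 1 per mouse. The authors pseudoaligned reads with kallisto (0.48) and deposited estimated counts and TPM, a level scaled to transcript length and depth, for each of 117497 transcripts. The labels give polyA RNA and the study's methods rRNA depletion. Transcripts were assigned to 35854 genes through GENCODE M21 (GRCm38), which left out 1154 transcripts with at most 0.489% of a library's counts. Estimated counts were summed per gene and rounded. Genotypes at rest were compared in 9 libraries, and the other contrasts in a model of 4 groups and 13 libraries, with edgeR 4.0.16 (TMM, filterByExpr, quasi-likelihood test, R 4.3.3), Benjamini-Hochberg adjustment over all genes tested and an adjusted p under 0.1. CPM used TMM factors, except in the sums over Y-linked genes, and log2 CPM a prior count of 2. Single values were compared by exact two-sided permutation over 126 splits of 9 mice. The same test of transcript shares was run over all genes with at least 10 counts in each unstimulated library and at least 2 transcripts with counts. The scripts were tested on simulated data. Alternatives included DESeq2 1.42.0, other scalings and filters, a length offset, date, a covariate of Y-linked transcripts, thinned libraries and leaving out each mouse. The mouse is the replicate, numbered as in the sample labels, and some deposited files carry another mouse number. The 10 genes and the gene lists were chosen with earlier results of these data known. All 10 genes are named, with up to 3 genes per direction and comparison from each list, by largest log2 fold change among those past the threshold, and the 3 genes most like Cd5 and Cd6. For the list of proximal TCR signaling genes, counts over the list and 1 of its genes are not reported here.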

Additional observations from a re-analysis of the deposited data

Results flagged for a closer look

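The genotype difference of 3 attenuators changed with stimulation by the test of that change itself. The interaction was 0.781 for Cd5, 0.709 for Cd6 and -1.222 for Ubash3a on the log2 scale, with edgeR adjusted p of 0.0339, 0.0183 and 0.000637.

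Single mice stood far from the rest of their group in 5 of 60 groups of values examined, where chance gives about 1 in 20, or 3. The 60 groups count the mirrored transcript shares of Dgka and of Ptpn22 separately. Among unstimulated Ctsl+/+ mice, mouse 4 had the lowest Ubash3b, at 5.894 log2 CPM, and the lowest Cbl, at 8.689 log2 CPM. This mouse was the only Ctsl+/+ mouse of the first date. Dgkz was highest in unstimulated CtslΔTEC mouse 1, at 9.566 log2 CPM. Among the 4 unstimulated Ctsl+/+ mice, the share of counts on transcripts not annotated as protein-coding was highest for Cbl in mouse 1, at 0.341%, and for Cblb in mouse 3, at 0.973%.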

How the results depend on the processing

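At rest Cd5 and Cd6 kept their direction and passed the threshold under every alternative run, and so did Ubash3a after stimulation. Values near 0 changed sign. For Cblb at rest the log2 fold change was 0.037 with library totals, 0.005 with upper-quartile factors, 0.016 with the length offset, 0.013 over protein-coding transcripts, 0.008 with date as a factor, 0.296 with the Y-linked covariate, 0.002 after thinning and -0.103 to 0.102 without single mice (-0.095 to 0.109 in log2 CPM). For Cd6 after stimulation it was 0.029 with upper-quartile factors, 0.045 with at least 10 counts in every library, 0.013 with the length offset, 0.032 in the 4 stimulated libraries alone, 0.035 after thinning and -0.064 to 0.009 without single mice. Dgkz after stimulation was 0.069 with the length offset. Interactions of Ptpn22 were 0.038 with DESeq2, 0.027 with upper-quartile factors, 0.059 with at least 10 counts, 0.015 over protein-coding transcripts and 0.048 after thinning, and that of Cbl was 0.101 with the length offset. The Ubash3a response in Ctsl+/+ cells was 0.063 over protein-coding transcripts. As shares of TPM, differences at rest were -2.570 points for leading Ubash3b, -0.745 for non-coding Ptpn6, 0.615 for leading Cbl and -0.820 for leading Cblb transcripts. The causes were not tested.

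With the Y-linked covariate 430 genes and 2 attenuators passed at rest, against 1943 and 4. After stimulation 1 attenuator, against 2, passed at an adjusted p of 0.05, with no filter, with the length offset and in the 4 stimulated libraries alone, where 1127 genes passed against 1902. The interaction was passed by 471 genes at an adjusted p of 0.05 and by 525 after thinning, against 859. Library totals moved the share of higher calls at rest from 43.4 to 56.8%, and at least 10 counts in every library that after stimulation from 20.8 to 36.6%. Of interaction calls 18.7% were positive, but 13.2% with library totals, 29.5% with DESeq2 and 33% after thinning. Library totals put the median of all genes at -0.208 in the CtslΔTEC response.

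Mouse numbers, taken from the sample labels (some deposited files carry another number), did not pair the samples, with correlations of -0.157, 0.352, -0.098 and -0.142. With the replicate block 1050 genes and 3 attenuators passed at rest, where Cbl (0.332, edgeR adjusted p = 0.107) did not, 281 genes and 1 attenuator after stimulation, 6270 and 5498 in the responses of Ctsl+/+ and CtslΔTEC cells, and 0 genes and 0 attenuators in the edgeR interaction, where 1470 genes had an unadjusted p under 0.05 (DESeq2 without the block called 1039). Under the block Cd6 was 0.016, Ubash3b -0.298, Ptpn6 -0.092 and Dgka -0.084 after stimulation, and interactions were -0.126 for Ubash3b, 0.058 for Ptpn22 and -0.030 for Dgka. Interactions of Cd5, Cd6 and Ubash3a were 0.853, 0.741 and -1.206 under the block and did not pass (edgeR adjusted p = 0.217, 0.304 and 0.148).

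Without single mice the calls after stimulation ranged from 954 genes (without CtslΔTEC mouse 6; 967 without Ctsl+/+ mouse 5, 1251 without CtslΔTEC mouse 7) to 2239, with 1 to 3 attenuators, and those of the interaction from 334 (without CtslΔTEC mouse 6; 341 without Ctsl+/+ mouse 5, 570 without unstimulated CtslΔTEC mouse 3) to 1232, with 2 to 4 attenuators. A lone mouse was taken to vary like the other groups. Values after stimulation spanned -0.318 to 0.528 for Ubash3b, -0.093 to 0.157 for Ptpn6, -0.039 to 0.183 for Dgka and -0.273 to 0.063 for Dgkz, and interactions -0.153 to 0.693 for Ubash3b, -0.147 to 0.121 for Ptpn22 and -0.214 to 0.004 for Cbl. Of 20 transcript shares 1 to 4 had p under 0.05. Leading shares spanned -0.37 to 0.963 points for Ubash3b, -0.111 to 1.373 for Ptpn6 and -0.45 to 1.294 for Cblb, and non-coding shares -0.544 to 1.708 for Ubash3a, -0.218 to 0.179 for Ptpn6 and -0.093 to 1.271 for Dgkz.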
